A study of Ovis aries with 18 samples.

Results

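The 31 genes described here are abundant transcripts of sheep skeletal muscle that stood moderately higher in the soleus than in 2 other muscles. They were chosen from the mean levels of 3 muscles, each measured in 6 libraries. A gene belonged to the set when its mean over the muscles was at least 100 FPKM, when its soleus mean was at least 2 times that of both other muscles but not at least 4 times both, and when its psoas major mean was below 1.5 times its longissimus lumborum mean. FPKM counts the reads on a gene per 1000 bases of its length and per 1000000 counted reads. Of 20477 genes in the deposited table, 670 reached a mean of 100 FPKM, and in 62 of these the soleus mean was at least 2 times both others. Among these 62 genes, 19 were at least 4 times higher in soleus than in both, 12 were left out because psoas major was at least 1.5 times longissimus lumborum, and 31 remained.

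The muscles were soleus (SOL), psoas major (PM) and longissimus lumborum (LL) of lambs, taken on the left side of the carcass. No treatment or mutation is given in the labels, and they name no breed, sex or age beyond "lamb". The libraries were made from total RNA with ribosomal RNA depleted, and those of each muscle carry the numbers 1 to 6. The libraries held 11924862 to 14747118 counted reads in SOL, 11124192 to 13747139 in PM and 10216739 to 12839575 in LL, and the scarcest of the 31 genes still had 155 reads in its lowest library. In earlier results on these libraries SOL 3, SOL 5 and LL 3 stood apart from the others of their muscle, and values without them are given where they bear on the set.

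Soleus is a postural muscle of the lower hind leg and is known in many mammals for a high content of slow, oxidative fibres, whereas the loin and tenderloin muscles are known for more fast fibres. Slow and fast fibres carry different forms of the contractile proteins and differ in calcium handling and energy metabolism. Which of these roles the 31 genes have is unknown here, because the table gives only Ensembl identifiers and 0 of them could be paired with a gene name. For the same reason the muscle labels could not be checked against fibre-type markers. Markers of fat, blood, nerve or connective tissue could not be checked either.

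The set spans a wide range of levels. Mean soleus levels ran from 182 to 5978 FPKM with a median of 313 FPKM, against 54.4 to 2741 FPKM (median 123 FPKM) in PM and 47.8 to 2228 FPKM (median 126 FPKM) in LL. Of the 31 genes, 5 had a soleus mean of at least 1000 FPKM, and 18 had a mean over the muscles under 200 FPKM. Among the 100 most abundant genes of each muscle, 7 members were found in SOL, 2 in PM and 3 in LL.

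**Figure D1:**
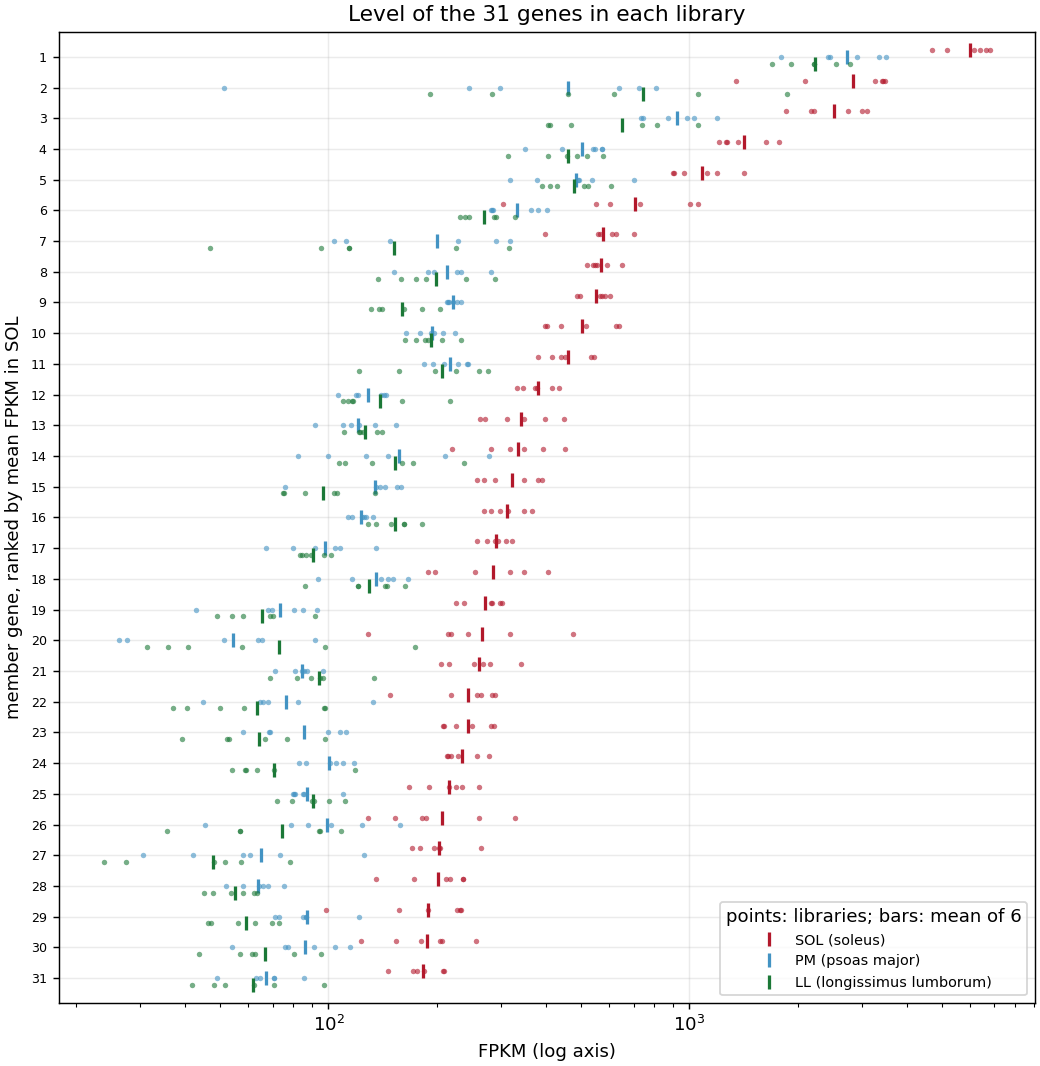
Level of each of the 31 genes (rows, ranked by soleus mean) in FPKM on a log axis; points are libraries and vertical bars the mean of 6 libraries, for SOL (red), PM (blue) and LL (green). The soleus bar is the rightmost in every row, as the choice of genes requires, while single libraries overlap in some rows.

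Together the 31 genes took a share of the counted reads that differed between muscles. In SOL it was 3.28% in library 1, 2.64% in 2, 2.84% in 3, 3.25% in 4, 3.19% in 5 and 3.23% in 6. In PM it was 1.29%, 1.00%, 1.06%, 1.23%, 1.12% and 1.28% in libraries 1 to 6, and in LL it was 0.951%, 1.32%, 0.963%, 0.961%, 0.866% and 1.23%. Every soleus library thus held a larger share than every library of the other muscles, which the choice of genes favours and which is given without a test. The mean share was 3.07% ± 0.266 for SOL, 1.16% ± 0.121 for PM and 1.05% ± 0.182 for LL (SD over 6 libraries). In bulk muscle, fewer cells or fibres of a type and less RNA per cell cannot be told apart.

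**Figure D2:**
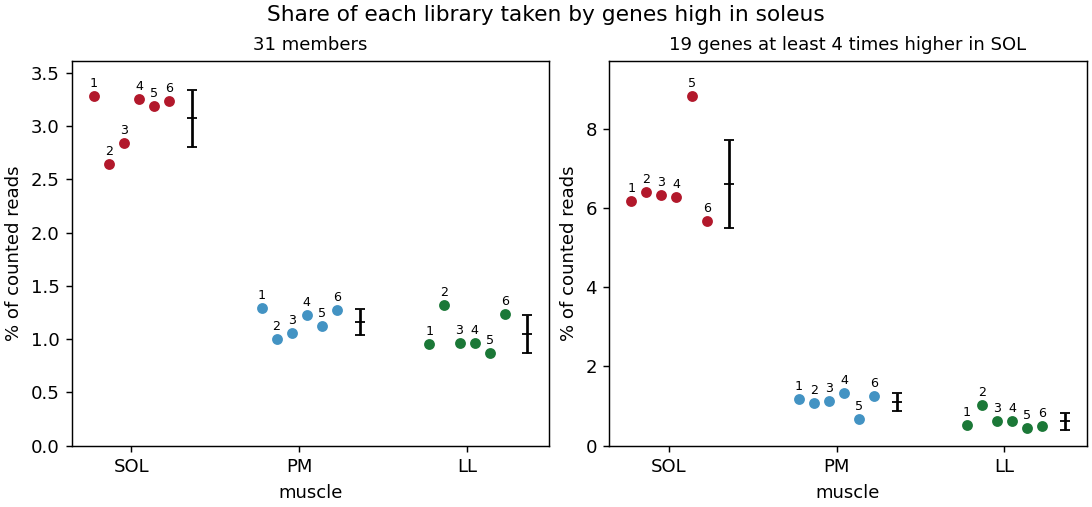
Percentage of counted reads in each library taken by the 31 genes (left) and by the 19 abundant genes at least 4 times higher in SOL than in both other muscles (right); points are libraries with their numbers, and the black bars give mean ± SD (n = 6). The 31 genes reach 2.64% or more in every SOL library and 1.32% or less elsewhere, and LL 2 is the highest LL library in both panels.

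Soleus means were 2.04 to 4.25 times those of LL (median 2.94) and 2.08 to 6.16 times those of PM (median 2.66). In 27 genes both ratios lay between 2 and 4. A pair of genes reached 4 times LL but not PM, and another pair reached 4 times PM but not LL. The ratio to LL was the larger one in 24 genes. These ratios chose the genes and are therefore a description. In a limma model over all 15434 genes that averaged 0.1 FPKM or more, fitted to log2(FPKM + 0.1), all 31 were called higher in SOL than in LL at a Benjamini-Hochberg adjusted p under 0.05, where 17.1% of all genes tested and 27.2% of the 670 abundant genes were. All 31 were also called higher in SOL than in PM in that limma model, where 11.0% of all genes and 26.0% of the abundant genes were. Nothing is read from these counts, since the same means chose the genes. The median log2 fold change of the 31 genes was 1.60 against LL and 1.44 against PM, beside medians of 0.24 and 0.15 over all genes tested. Scaling each library by median ratios lowered these to 1.48 and 1.31 for the 31 genes and to 0.12 and 0.03 for all genes; the same library factors apply to every gene. Over all genes, that scaling changed the SOL against LL calls from 2632 higher and 1283 lower to 2096 higher and 1718 lower, and those of SOL against PM from 1698 and 899 to 1260 and 1262.

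**Figure D3:**
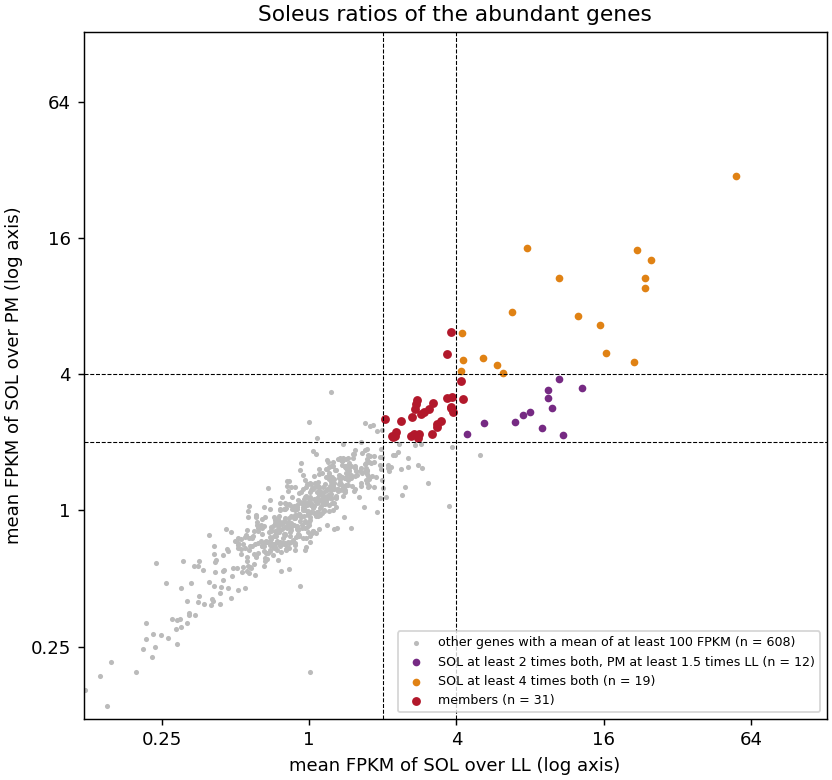
Ratio of mean FPKM of SOL over PM (y axis) against SOL over LL (x axis) for genes averaging 100 FPKM or more, both on log axes, with dashed lines at 2 and 4; 27 genes lie outside the axes. The 31 members (red) lie above 2 on both axes and at most 1 of their ratios reaches 4.

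Except for the ratio of PM to LL, the limits of the rule cut through a continuous range, on both sides of which genes lay close. The member with the lowest mean stood at 103.9 FPKM over the muscles, and the nearest gene outside at 99.6 FPKM. For the ratio of SOL to LL the nearest values were 2.04 inside and 1.99 outside, and for SOL to PM they were 2.08 and 1.98. At the upper limit, the member whose smaller ratio was highest reached 3.81 and the nearest gene outside 4.13. The gap was widest for the ratio of PM to LL, with 1.47 inside and 2.02 outside.

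How well single libraries separated the muscles varied within the set. Every SOL library lay above every LL library in 27 of 31 genes, as in 7.25% of all genes tested and 18.7% of the 670 abundant genes. It lay above every PM library in 27 genes (background 6.75% and 18.8%) and above all 12 libraries of both muscles in 25 (background 4.25% and 13.4%). The choice of genes favours this, and nothing is read from it. Among libraries with the same number, SOL exceeded LL in all 6 numbers for 30 genes and exceeded PM in all 6 for 30. The soleus library was at least 2 times both same-numbered libraries in all 6 numbers for only 8 genes, and in 3 or fewer numbers for 11. The choice of genes bears on these same-number counts too. No share over all genes stands beside them, and nothing is read from them.

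The member with the highest soleus mean was ENSOARG00020017576 (recovered length 1446 bp), the seventh most abundant gene of the soleus. Its level was 6651, 4686, 5179, 6814, 6136 and 6403 FPKM in SOL 1 to 6, against 3356, 1799, 2453, 3502, 2428 and 2908 in PM 1 to 6 and 2212, 2543, 1695, 2217, 1912 and 2789.9 in LL 1 to 6. The groups did not overlap: the lowest soleus library, SOL 2, was 1.34 times the highest PM library and 1.68 times the highest LL library. Its means of 5978 ± 856 FPKM for SOL, 2741 ± 641 for PM and 2228 ± 399.9 for LL (SD, n = 6 each) place SOL at 2.18 times PM and 2.68 times LL. This gene alone took 0.678% to 0.985% of the reads of the soleus libraries.

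ENSOARG00020025944 (895 bp) had the second highest soleus mean of the set and the highest coefficient of variation within PM (65.9%) and within LL (84.1%), though not within SOL (31.9%). It stood at 3433, 1343, 2085, 3476, 3416 and 3276 FPKM in SOL 1 to 6, at 298, 51.3, 246, 724, 806 and 640.1 in PM 1 to 6, and at 619.8, 1864, 460.3, 283, 191 and 1057 in LL 1 to 6. SOL and PM did not overlap, but LL 2 exceeded SOL 2, so in number 2 the loin library was above the soleus one. It averaged 2838 ± 904 FPKM over the soleus libraries, 461 ± 304 over PM and 746 ± 627 over LL (SD, n = 6 each). Its soleus mean was 6.16 times that of PM, the highest such ratio in the set, and 3.81 times that of LL, and its PM mean was 0.618 times that of LL, the lowest in the set with all libraries. The ratio of PM to LL rested on single libraries: the log2 difference was -0.74 with all of them, -0.39 without LL 2 and -0.20 without PM 2. Within PM the highest and lowest libraries, PM 5 and PM 2, differed by a larger ratio than the means of any 2 muscles.

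A similar pattern at a lower level was found for ENSOARG00020017791 (4355 bp), with soleus at 4.89 times PM and 3.65 times LL. Its level was 129, 219, 214, 243, 474 and 318 FPKM in SOL 1 to 6, against 65.3, 27.7, 51.5, 26.2, 91.8 and 63.9 in PM 1 to 6 and 40.8, 174, 57.5, 31.4, 35.9 and 98.0 in LL 1 to 6. LL 2 was again the highest LL library and exceeded SOL 1, so that SOL and LL overlapped. The PM mean was 0.746 times the LL mean, a ratio that rested on LL 2: the log2 difference of PM and LL was -0.28 with all libraries and 0.03 without LL 2.

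The largest ratios of SOL to LL were those of ENSOARG00020014246 (3314 bp) at 4.25 and ENSOARG00020006708 (1924 bp) at 4.17. ENSOARG00020006708 held 225, 282, 303, 284, 238 and 299 FPKM in SOL 1 to 6, 92.9, 85.2, 69.8, 80.1, 43.0 and 68.1 in PM 1 to 6, and 54.1, 70.2, 91.6, 68.7, 57.9 and 49.3 in LL 1 to 6. Its groups were far apart, with the lowest soleus library at 2.42 times the highest PM library and 2.46 times the highest LL library. It averaged 272 ± 32.7 FPKM over SOL, 73.2 ± 17.5 over PM and 65.3 ± 15.2 over LL (SD, n = 6 each), and PM and LL overlapped widely.

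The set leaned towards higher levels in PM than in LL, within the limit that the rule sets. The ratio of PM to LL ran from 0.618 to 1.47 with a median of 1.10, and the PM mean was higher in 24 genes and lower in 7. Among the 670 abundant genes the PM mean was the higher one in 44.0%. The lean was not particular to the 31 genes. Among the 19 genes at least 4 times higher in SOL the ratio had a median of 1.53, with a range of 0.154 to 4.70. A further 12 genes high in SOL were left out because their ratio was at least 1.5. Because the rule caps this ratio at 1.5 and sets both muscles against SOL, the difference of PM and LL is a description and no test is drawn from it. In the model over all genes, 1 of 31 members was called between PM and LL, against 1.48% of all genes tested and 8.81% of the 670 abundant genes.

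That member was ENSOARG00020006245 (1054 bp), whose PM level was unusually even. It stood at 602, 489, 583, 497, 572 and 564 FPKM in SOL 1 to 6, at 234, 222, 216, 213, 215 and 226 in PM 1 to 6, and at 131, 138, 203, 141, 162 and 181 in LL 1 to 6. It was the only member whose PM and LL ranges did not overlap, and the coefficient of variation was 8.52% in SOL, 3.55% in PM and 17.7% in LL. The call between PM and LL was absent after median-ratio scaling and when any of PM 1, PM 2, PM 4, PM 6, LL 1 or LL 4 was left out, and without PM 5 there were 2 such calls.

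The highest ratios of PM to LL belonged to ENSOARG00020002118 (321 bp, the shortest member) at 1.47 and ENSOARG00020012194 (952 bp) at 1.43. ENSOARG00020012194 held 2999, 1855, 3098, 2212, 2748 and 2168 FPKM in SOL 1 to 6, 1031, 872, 982, 736, 742 and 1191 in PM 1 to 6, and 469.7, 1055, 739, 406, 409.8 and 811 in LL 1 to 6. SOL lay above both other muscles without overlap, while LL spread over a wider range than PM and overlapped it. ENSOARG00020002118 was at 98.4, 189, 157, 227, 231 and 233 FPKM in SOL 1 to 6, against 71.1, 86.6, 122, 72.8, 86.5 and 84.8 in PM 1 to 6 and 62.7, 73.0, 47.3, 56.2, 69.9 and 46.3 in LL 1 to 6. Here PM 3 exceeded SOL 1, so SOL and PM overlapped, while SOL and LL did not.

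The spread between libraries of a muscle was not used to choose the genes. The SD of log2(FPKM + 0.1) over 6 libraries had a median over the 31 genes of 0.26 for SOL, 0.30 for PM and 0.33 for LL, beside 0.24, 0.23 and 0.29 over the 670 abundant genes and 0.37, 0.52 and 0.69 over the 19 genes at least 4 times higher in SOL. In 22 of 31 members (71.0%) the LL libraries spread more than the SOL libraries, as they did in 65.4% of the 670 abundant genes. A limma test of the absolute deviations from the muscle median called 0 of 31 members at an adjusted p under 0.05 for SOL against LL (background 0.22%), 0 for soleus against PM (0.13%) and 0 where PM was set against LL (0.0%). At an unadjusted p under 0.05 it picked 2 members for SOL against LL, where 8.51% of all genes and 7.61% of the abundant genes were picked. It picked 1 for SOL against PM (background 2.75% and 3.73%) and 3 for PM against LL (7.66% and 5.97%), so the counts of members are near the background. No other tool was run for the spread, and a missing call does not show equal spread.

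Under the rule for naming, the smallest p-values for the spread belonged to ENSOARG00020006245, above, and ENSOARG00020000992 (7505 bp, the longest member). ENSOARG00020000992 was at 289, 310.1, 323, 274, 258 and 294 FPKM in SOL 1 to 6, at 108, 104, 66.9, 79.6, 92.0 and 135 in PM 1 to 6, and at 83.2, 97.1, 86.4, 89.4, 84.4 and 102 in LL 1 to 6. It was even in SOL and LL, with coefficients of variation of 8.04% and 8.24%, and less even in PM with 24.5%. Its adjusted p for PM against LL was 0.62 in that limma test, and that of ENSOARG00020006245 was 0.56.

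Pairs of members were correlated within muscles little more than other abundant genes. After the mean of each muscle was subtracted from the log2 values, the 465 pairs of members had a median correlation over 18 libraries of 0.061, beside 0.043 for all pairs of the 670 abundant genes. A correlation of at least 0.6 was found in 5.38% of member pairs and in 3.53% of pairs of abundant genes. The points share libraries and library totals, and these correlations are a description. Joining members by such correlations linked 21 of them into 4 sets of 10, 6, 3 and 2 genes, and 10 members were linked to none. These sets were formed after the values were seen and were not tested. Libraries in which the genes of a set stood high or low together follow from the joining itself.

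The set of 10 held ENSOARG00020017576, ENSOARG00020025944, ENSOARG00020012194 and ENSOARG00020017791. In LL 2 its median deviation from the LL mean was 0.77 on the log2 scale, and in LL 6 it was 0.38, while the other LL libraries were at -0.19 to -0.32. LL 2 was the highest LL library for 9 of these 10 genes, and SOL 2 was the lowest SOL library for 7. The 19 genes at least 4 times higher in SOL also had their highest median deviation among the LL libraries in LL 2, at 0.80, but stood at -0.37 in LL 6. Their summed share of reads was 1.04% in LL 2 and 0.436% to 0.623% in the other LL libraries. Nothing is read from setting the 10 genes beside the 19, since only the 10 were joined by their correlation over these libraries. Over all 31 members the median deviation was 0.13 in LL 2 and 0.19 in LL 6, beside 0.10 and -0.05 for the 670 abundant genes. The part of library composition in these values was not tested.

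The set of 6, with ENSOARG00020006708 and ENSOARG00020006245, was highest in LL 3 in all 6 genes, with a median deviation of 0.53. LL 3 is the library that stood apart in LL and had the fewest genes detected, 12704 against 13369 or more in the other LL libraries. The set of 3 was lowest in PM 3 in all 3 genes (median deviation -0.57) and lowest in SOL 3 and LL 3 in 2 genes each. The set of 2 fell apart from the rest in the soleus itself, with median deviations of -0.79 in SOL 3 and -0.39 in SOL 5, against 0.52 in SOL 4 and 0.59 in SOL 6.

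**Figure D4:**
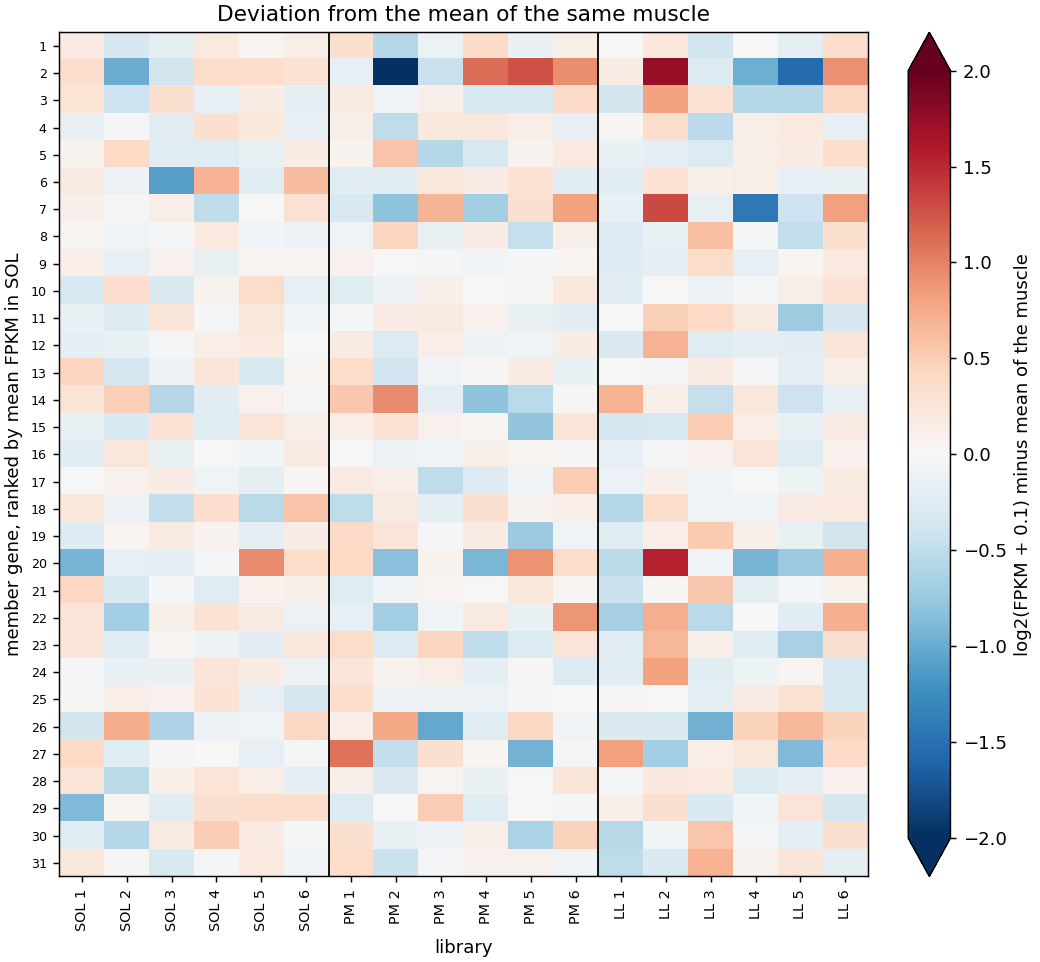
Deviation of each of the 31 genes (rows, ranked by soleus mean) from the mean of its own muscle, as log2(FPKM + 0.1), in each library (columns; SOL, PM and LL separated by lines). Red is above and blue below the muscle mean, with colours capped at 2. LL 2 is red in rows 2, 3, 7 and 20 among others, and LL 3 in rows 8, 9 and 15 among others. Some rows not listed are as red as listed ones or redder, such as row 24 in LL 2 and row 31 in LL 3.

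In SOL 3 the 31 genes showed no common shift: the median deviation was -0.03, with 13 genes above the SOL mean. In SOL 5, with the fewest genes detected in soleus, it was 0.06, with 18 genes above. SOL 2 was the lowest soleus library for 14 of the 31 genes, with a median deviation of -0.13, beside -0.05 for the 670 abundant genes there. The 33 abundant genes that were moderately lower in SOL under mirrored limits stood at -0.14 in SOL 2, so this was not particular to the members. LL 1 and LL 5 were low, at -0.21 and -0.19, and LL 6 was high at 0.19. The abundant genes as a whole stood at -0.09, 0.05 and -0.05 in these 3 libraries.

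Differences among replicate numbers do not depend on the muscle means, since each number occurs once in every muscle. With muscle and number in 1 limma model, 1 of 31 members differed among the numbers at an adjusted p under 0.05, a share near the 1.89% of all genes tested and the 4.18% of the 670 abundant genes. At an unadjusted p under 0.05 there were 4 members of 31, beside 16.4% of all genes tested and 28.5% of the abundant genes.

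ENSOARG00020014246 was the member called, with number 1 highest in all 3 muscles. It stood at 265, 171, 203, 203, 179.5 and 196 FPKM in SOL 1 to 6, at 125, 42.0, 73.3, 60.5, 30.6 and 58.0 in PM 1 to 6, and at 78.2, 27.4, 48.3, 51.7, 23.8 and 57.2 in LL 1 to 6. Numbers 2 and 5 were below the muscle mean in all 3 muscles, and number 5 was the lowest in PM and LL. The mean deviation over the muscles was 0.77 on the log2 scale for number 1 and -0.66 for number 5 (limma adjusted p = 0.013). The same model gave an adjusted p of 0.053 without PM 1, 0.055 without LL 1 and 0.11 without number 1 in all muscles, so the call was not kept without number 1. Its SOL level lay above both other muscles in every number.

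The next smallest p was that of ENSOARG00020019713 (1209 bp), which was lowest in number 3 in all 3 muscles. Its level was 153, 329, 129, 182, 187 and 261 FPKM in SOL 1 to 6, against 102, 158, 45.4, 78.9, 124 and 87.7 in PM 1 to 6 and 56.7, 56.9, 35.6, 95.0, 109 and 94.2 in LL 1 to 6. PM 2 exceeded SOL 1 and SOL 3, so SOL and PM overlapped. It did not pass the threshold (limma adjusted p = 0.10). Without LL 2 the adjusted p was 0.011, and in that fit 3 of 31 members were called, beside 2.31% of all genes tested and 6.12% of the abundant genes, so the calls over all genes rose too.

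**Figure D5:**
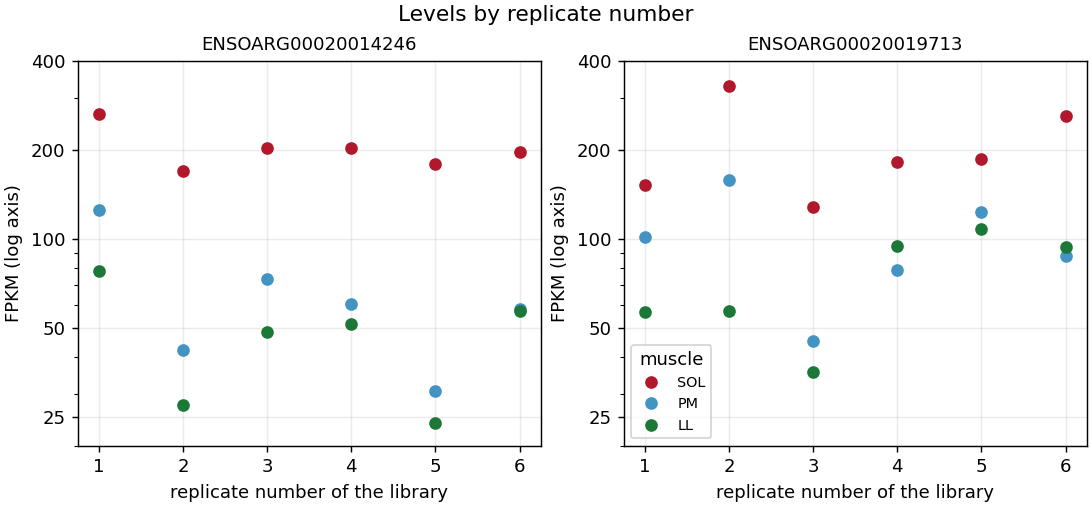
Level in FPKM (log axis) of the 2 members with the smallest p for a difference among replicate numbers, by number of the library (x axis), in SOL (red), PM (blue) and LL (green). ENSOARG00020014246 is highest in number 1 in each muscle, and ENSOARG00020019713 is lowest in number 3 in each muscle.

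In gene length the 31 genes were close to other abundant genes. The median recovered length was 1209 bp with a range of 321 to 7505 bp, beside a median of 1169 bp for the 670 abundant genes and 1493 bp for all genes tested. A length divisible by 3, which gene models holding only coding sequence would have, was found in 11 members (35.5%) and in 42.2% of the 670 abundant genes. Among genes detected in 12 or more libraries the share was 50.9%. Multiples of 3 also occur among lengths of any kind, so these shares do not count coding-only models. The 19 genes at least 4 times higher in SOL had a median length of 1057 bp, and the 33 abundant genes that were moderately lower in SOL under mirrored limits had 1325 bp. These lengths are given without a test.

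Membership was moderately stable to single libraries. Leaving out each library in turn gave 27 to 37 genes meeting the rule, and 18 of the 31 met it in every such case. Without LL 2, 25 of the 31 remained, the lowest number for any left-out library. Without SOL 3, SOL 5 and LL 3 together 33 genes met the rule, 29 of them members. With medians in place of means 24 members remained, and after median-ratio scaling 23.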

How the data were processed

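The members and all gene lists were chosen with earlier results of these data known. Per the labels' protocols, HISAT2 (2.2.1) mapped the trimmed reads to a sheep genome and StringTie (2.2.0) assembled transcripts; no source used here names the build, annotation, counter or strand setting, so overlapping genes and near-identical copies may share reads. The table deposited by the authors holds FPKM values for 20477 Ensembl genes in 18 libraries; its header names no unit. Multiplied by a whole gene length and 1 total per library, 100% of positive values came within 0.05 of whole reads, which gave the lengths and totals used here, after a check on simulated data. Since the values are not counts, limma (3.58.1, under R 4.3.3) was fitted to log2(FPKM + 0.1) of the 15434 genes averaging 0.1 FPKM or more, over all libraries, with a variance trend and Benjamini-Hochberg adjustment; fold changes on this scale understate those of low genes. The spread test used absolute deviations from the muscle median. Tables were made in Python (3.11.15). Named were the 2 members highest in SOL, the 2 with the largest SOL/LL, SOL/PM and PM/LL ratios, the 2 with the lowest PM/LL ratio and the 2 with the smallest p in the number and spread tests. Marker and pathway lists had no members, since no identifier could be paired with a name.

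Library numbers were checked for pairing by the correlation of deviations from the muscle means over 15434 genes. Same-numbered SOL and PM libraries correlated at 0.13 to 0.23, all above the limit of 0.1 set for pairing. Those of LL reached as low as 0.086 with SOL and 0.090 with PM and did not meet that limit for all numbers. Libraries with different numbers reached at most 0.017 for SOL and PM, 0.052 for SOL and LL and 0.007 for PM and LL. Same-numbered libraries were thus the more alike in all 3 pairs of muscles, LL included. The main muscle and spread fits left the number out. Muscle fits with the number as a replicate block are given as an alternative. For the spread, the alternative subtracted the number effects before the deviations were taken, and its fit held muscle alone. The labels do not tie a number to an animal, so p-values cover only the scatter of these libraries, which may be technical. Reads are not counted molecules, so shares of reads cover counting only.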

Additional observations from a re-analysis of the deposited data

Results flagged for a closer look

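Each named member and the summed share of reads were examined in each muscle for a library far from the other 5 (Dixon's test). Of 33 sets, 2 stood out, where chance gives about 1 in 20, or 1.65. ENSOARG00020014246 was 265 FPKM in SOL 1, and the next soleus library was at 203 FPKM. ENSOARG00020002118 was 122 FPKM in PM 3 and 86.6 FPKM in the next PM library. Over all 31 members, 5 of 93 sets stood out, against 4.65 by chance.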

How the results depend on the processing

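With the replicate block, all 31 members were again called higher in SOL than in LL and than in PM. In that fit 1 was called between PM and LL, as without the block. For the spread, the number effects were subtracted first, which ties the deviations of the 3 muscles together. Of 15434 genes, only 158 (SOL against LL), 168 (SOL against PM) and 164 (PM against LL) then had an unadjusted limma p under 0.05. The 0 adjusted calls for the spread in that setting are therefore no check on the spread. In PM against LL, the 1 member called became 0 after median-ratio scaling, and 0 to 2 when single libraries were left out. Among replicate numbers, the 1 member called became 0 to 3 when single libraries or all libraries of 1 number were left out. The other settings (pseudocounts of 1 and 0.01, no filter, a filter of 1 FPKM, voom on recovered reads) left these counts of members as they were, and the counts of members for soleus against either muscle and for the spread stayed the same in every alternative run. The log2 difference of PM and LL for ENSOARG00020017791 ranged from -0.46 to 0.03 with single libraries left out and reversed only without LL 2. Chosen after seeing the data were voom for the numbers and the tests without SOL 3, SOL 5 and LL 3. Genes meeting the rule numbered 27 with medians and 25 after median-ratio scaling. Over all genes, the block raised the calls higher in SOL from 2632 to 3088 against LL and from 1698 to 2012 against PM. PM against LL gave 229 calls, 415 with the block, and 138 to 340 with single libraries left out. The numbers gave 292 calls, 486 with voom and 185 without number 6. The spread of SOL against LL gave 34 calls, 75 without a filter and 20 with a pseudocount of 1. It gave 0 with a filter of 1 FPKM or with the number effects subtracted. That of SOL against PM gave 20, 54, 13, 0 and 0 in the same order. That of PM against LL gave 0 calls, 21 without a filter and 1 with a pseudocount of 1. With single libraries left out, the spread gave 0 to 31 calls for soleus against LL, 0 to 20 against PM and 0 to 2 for PM against LL. The causes were not tested. The fewest reads of a member in a library were 155, and the part of counting error in the spread was not tested. Having 6 libraries per muscle limits the precision of every mean.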
